A study of Mus musculus with 6 samples.

Results

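Ube2 genes encode the E2 ubiquitin-conjugating enzymes and a few proteins named after them. The mRNAs of this family were measured in whole thymus of 3 wild type (WT) C57BL/6 mice and of 3 C57BL/6 mice of the miR-181d transgenic line Tg-38, on one Illumina MouseWG-6 v2 array per mouse. The members are all genes whose symbol in the platform's probe annotation starts with Ube2. There were 34 such genes with 60 probes, among 19057 genes and 45281 probes. A probe was kept when its detection p-value, the chance of such a signal from a negative control probe, was under 0.05 on at least 3 of the 6 arrays. This left 26 of the 34 Ube2 genes with 41 probes, among 9782 genes and 18352 probes.

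In Tg-38 mice the primary transcript of miR-181d was driven by the VA-hCD2 cassette, which is active in thymocytes and peripheral T cells. The Tg-38 group is 1 transgenic line, so effects of the microRNA and of the insertion site cannot be told apart. The labels give no further allele or treatment for either group, and no age or sex. The labels name the thymocyte as the cell type but the tissue as whole thymus, so stroma and blood cells were included. In whole tissue, fewer cells of a type and less RNA per cell cannot be told apart. Levels are normalized log2 intensities, and each difference is given as Tg-38 minus WT on the log2 scale.

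Ubiquitin is attached to proteins in a cascade. An E1 enzyme activates ubiquitin and passes it to an E2, and the E2 works with an E3 ligase that selects the target. The E2 often decides which chain is built. K48-linked and K11-linked chains usually mark a protein for the proteasome, while K63-linked chains act in signaling and DNA repair. Some E2 enzymes carry the ubiquitin-like proteins ISG15 or NEDD8 instead. In developing T cells, ubiquitin ligases limit signaling from the T cell receptor and set the turnover of many receptors and transcription factors.

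The sequences of the mature miR-181 microRNAs show what was overexpressed in Tg-38 mice and what it has in common with its relatives. The seed, bases 2 to 8 counted from the 5′ end, is in capitals, and all 4 share it. RefSeq places miR-181d on the minus strand at chr8:84178759-84178781 of GRCm38.p6, close to miR-181c at chr8:84178924-84178945 on the same strand. The level of the mature microRNA itself was not measured on these arrays.
miR-181a-5p: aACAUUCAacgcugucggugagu
miR-181b-5p: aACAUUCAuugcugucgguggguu
miR-181c-5p: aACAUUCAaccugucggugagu
miR-181d-5p: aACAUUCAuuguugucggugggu

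The family as a whole leaned towards lower signal in Tg-38 thymus by a small amount, and no single member passed the test over all probes. By the brightest kept probe of each gene, 21 of 26 Ube2 genes (80.8%) had a log2 fold change below 0, against 47.1% of all 9782 genes kept. The median over the 26 genes was -0.12, with quartiles of -0.26 and -0.02. The median over the other 9756 genes was 0.02, with quartiles of -0.13 and 0.16. The values ran from -0.52 for Ube2l6 to 0.31 for Ube2cbp, and no member differed by more than 1.5-fold. By limma with Benjamini-Hochberg adjustment over 18352 probes, 0 of the 41 Ube2 probes had an adjusted p under 0.05, while 1.1% of all probes did. The lowest adjusted p of the family was 0.12, for Ube2h. At an unadjusted p under 0.05, 7 Ube2 genes (26.9%) lay below 0, against 6.94% of all genes, and 1 (3.85%) lay above 0, against 10.6% of all genes. These shares describe the family and were not tested as a set. Of the 7 genes, Ube2l6 passed the detection filter through the WT group, where its signal was higher. It also sets the lowest value of the range. Among genes detected on all 6 arrays the count below 0 at an unadjusted p under 0.05 by limma was 6. By the methods' t-test, 5 of the 41 probes had an unadjusted p under 0.05 and 0 had an adjusted p under 0.05.

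The count of 7 rested on single arrays more than the direction did. It was 2 without WT 1 or without Tg-38 3, 3 without WT 3 and 4 without Tg-38 2, while between 18 and 21 of the 26 genes stayed below 0 when any 1 array was left out. The count above 0 was 0 without WT 1, WT 2, Tg-38 2 or Tg-38 3, and 2 without WT 3. Calls over all 18352 probes moved too. By limma 202 had an adjusted p under 0.05 with all arrays. This became 26 without WT 1, 273 without WT 2 and 21 without WT 3. It became 21 without Tg-38 1, 65 without Tg-38 2 and 20 without Tg-38 3. Shares of all genes at an unadjusted p are not given for these fits. The family median was -0.18 without WT 2 and -0.19 without Tg-38 2. When arrays were scaled to the same median in place of quantile normalization, the median over all probes moved from -0.01 to -0.14. Under that scaling 23 of 26 Ube2 genes were below 0, against 72.3% of the other genes, and the family median stood 0.15 below that of the other genes, as compared with 0.13 in the quantile-normalized values.

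**Figure D1:**
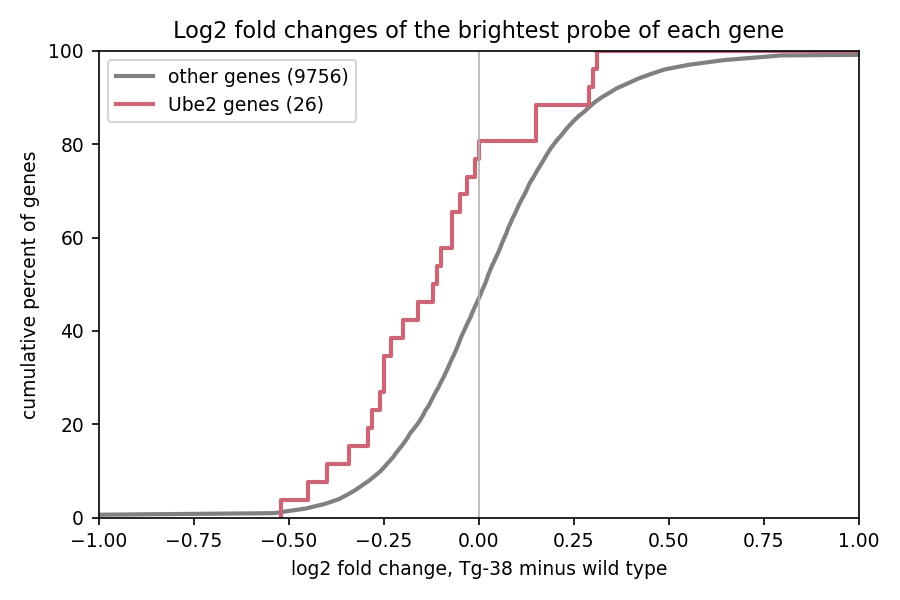
Cumulative percent of genes (vertical axis) with a log2 fold change, Tg-38 minus WT, at or below the value on the horizontal axis, for the brightest kept probe of 26 Ube2 genes (red steps) and 9756 other genes (grey line). The red steps lie to the left of the grey line over most of the range and reach 80.8% at 0, where the grey line is at 47%. The axis ends at -1 and 1.

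By array, the family medians of the groups lay apart, while counts of members separated the groups less clearly. Measured from each gene's own mean over the 6 arrays, the median Ube2 gene stood at 0.08, 0.03 and 0.09 in WT mice 1, 2 and 3. It stood at -0.05, -0.02 and -0.12 in Tg-38 mice 1, 2 and 3. The groups did not overlap, although WT 2 and Tg-38 2 were close. For the other genes the same medians lay between -0.01 and 0.02 on all 6 arrays. Of the 26 members, 8, 11 and 6 were below their own mean in the WT mice, and 19, 15 and 17 in the Tg-38 mice. Of the other genes, 45.3% to 52.4% were below their own mean on each array. Deviations from a mean over both groups make higher WT values go with lower Tg-38 values. Measured from the WT mean instead, 10, 16 and 11 members were below it in WT mice and 20, 15 and 18 in Tg-38 mice. By that count more members were low in WT 2 than in Tg-38 2. An exact two-sided permutation test of 3 against 3 mice cannot give a p below 0.1, so no such test was used.

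**Figure D2:**
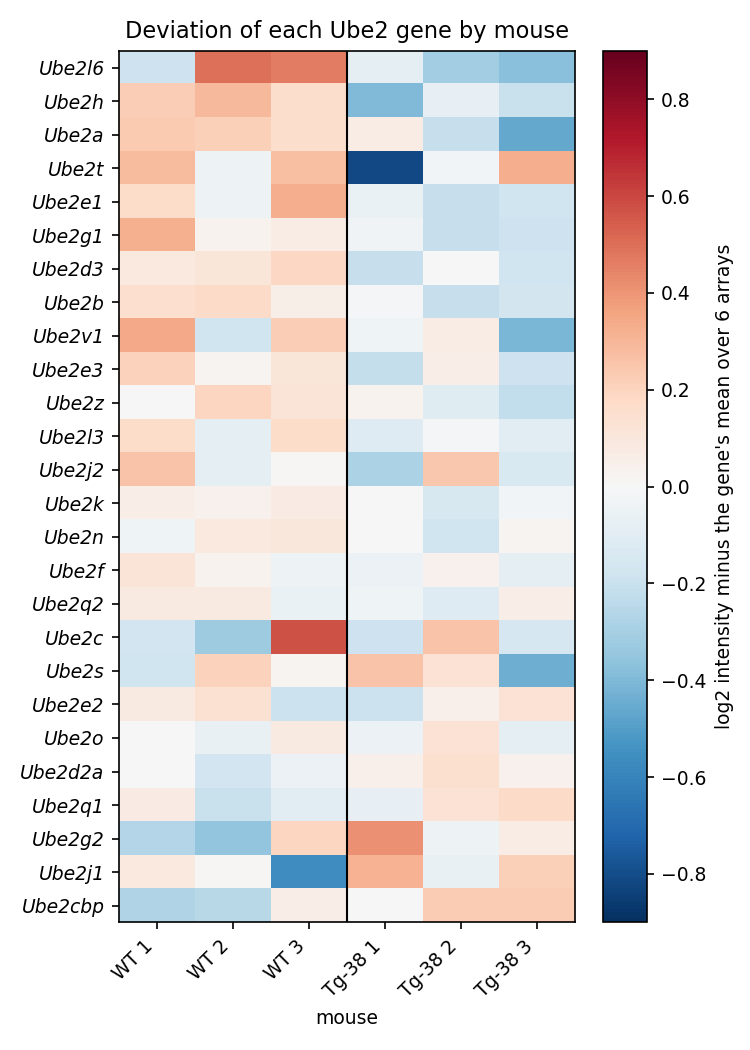
Log2 intensity of each of 26 Ube2 genes (rows, brightest kept probe, ordered by log2 fold change) in each mouse (columns) minus the gene's mean over the 6 arrays, red above and blue below the mean. Most upper rows are red in the WT mice and blue in the Tg-38 mice, while Ube2c, Ube2s and Ube2j2 vary within the groups and Ube2t is deep blue in Tg-38 1 only.

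Values below 0 prevailed at most signal strengths. The genes were split by mean intensity into 4 bins of like size. From the dimmest to the brightest bin, 2 of 3, 7 of 9, 7 of 7 and 5 of 7 Ube2 genes were below 0, against 45.2%, 45.9%, 49.3% and 47.6% of the other genes. Among genes detected on all 6 arrays, 20 of 24 Ube2 genes were below 0. Over all kept probes in place of the brightest one, 32 of 41 Ube2 probes were below 0. Of these 41 probes, 9 lay below and 1 above 0 at an unadjusted p under 0.05, against 8.48% and 8.55% of all kept probes. The arrays detected between 17674 and 18526 probes each, with median raw signals from 123 to 140.7, and replicate arrays correlated at 0.9875 to 0.9922.

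**Figure D3:**
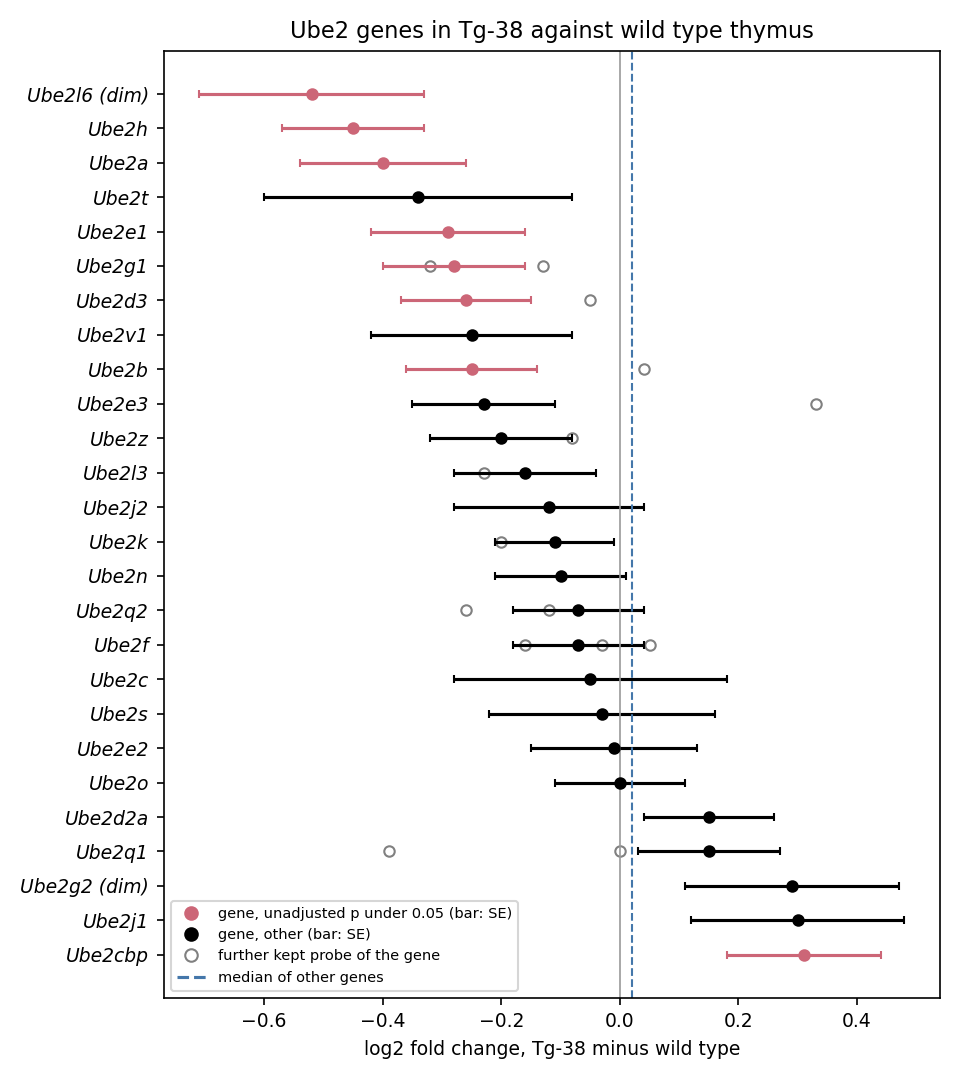
Log2 fold change, Tg-38 minus WT, of 26 Ube2 genes (filled points, brightest kept probe, bars are standard errors from limma, 3 mice per group) and of their further kept probes (open circles). Red points have an unadjusted p under 0.05, the dashed line marks the median of other genes, 0.02, and "(dim)" marks genes not detected on all 6 arrays. The 26 points run from -0.52 to 0.31, and 5 of them lie above 0.

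Ube2h showed the clearest difference. It is the E2 of the CTLH (GID) ligase and is abundant in maturing red cells. Its level was 8.17, 8.25 and 8.11 in the WT mice and 7.55, 7.88 and 7.75 in the Tg-38 mice, so the groups did not overlap. The log2 fold change was -0.45 ± 0.12 (SE, n = 3 per group), or 1.36-fold lower, and the adjusted p by limma was 0.12. Under 16 alternative settings its unadjusted p was under 0.05 each time and its adjusted p ran from 0.054 to 0.3. Genes particular to red cells also had values below 0, though none passed the adjusted threshold in the fit reported here. Hba-a1, the alpha globin chain, was at 13.41, 14.62 and 14.42 in WT mice and at 13.20, 12.66 and 11.90 in Tg-38 mice (-1.57 ± 0.37, adjusted p = 0.088). Alas2, the first enzyme of heme synthesis in red cells, was at 6.64, 8.27 and 8.45 against 6.36, 6.20 and 5.04 (-1.92 ± 0.49, adjusted p = 0.1). Under alternative settings, Hba-a1 had an adjusted p under 0.05 in 4 of 16 and Alas2 in 2 of 15. Over the whole list of 6 kept reticulocyte and heme genes, 3 were below 0 and the median was 0.01, with Tfrc, the transferrin receptor, at 0.28, Bpgm at 0.20 and Slc25a37 at 0.18. Among the Tg-38 mice, Tg-38 1 had the highest Hba-a1 and the lowest Ube2h. Among the WT mice, WT 2 was highest for both. Ube2o, an E2 and E3 hybrid that clears proteins from reticulocytes, had a log2 fold change of 0.00 with a 95% interval from -0.26 to 0.25. The part of red cell RNA in the Ube2h value was not tested.

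The 3 members tied to DNA damage and chromatin, Ube2a, Ube2b and Ube2t, all had values below 0, with a median of -0.34. Ube2a and Ube2b are the mammalian forms of yeast Rad6 and work with the ligases Rad18 and Rnf20/Rnf40. Ube2a was at 8.52, 8.49 and 8.44 in WT mice and at 8.35, 8.08 and 7.82 in Tg-38 mice. The Tg-38 mice were all below the WT mice but far apart from each other, and the log2 fold change was -0.40 ± 0.14 (adjusted p = 0.2). Without Tg-38 3, the lowest of the mice, it was -0.27. Ube2b was at 11.33, 11.36 and 11.24 against 11.17, 10.97 and 11.02, again without overlap (-0.25 ± 0.11, adjusted p = 0.28). A second probe of Ube2b did not show this difference (0.04 ± 0.11, adjusted p = 0.88), and its last one was not detected on any array. Ube2t, the E2 of the Fanconi anaemia ligase Fancl, was at 7.45, 7.13 and 7.44 in WT mice and at 6.36, 7.15 and 7.50 in Tg-38 mice. Its value of -0.34 ± 0.26 rested on the low signal of Tg-38 1, and its 95% interval ran from -0.92 to 0.24. Among 16 kept ligases and partners of the DNA damage response, 9 were below 0, the median was -0.02, and 0 reached an unadjusted p under 0.05 by limma in either direction.

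Promoters of Ube2h and Ube2b are shown because they were the kept members with a full cAMP response element, TGACGTCA, in the windows from RefSeq. The element was picked after the sequences were viewed. It was searched on both strands, on which it reads the same, in windows from 250 bases before to 50 bases after each annotated start. Of 26 kept Ube2 genes, 22 had a listed promoter (31 windows), and 2 windows of 2 genes held the element, against 1.79% of all 32851 windows. Both genes have a further listed start without it. The windows below lie on the minus strand at chr6:30304490-30304789 for Ube2h and chr11:52000737-52001036 for Ube2b (GRCm38.p6), and capitals mark the element, which begins 24 bases before the start of Ube2h and 1 base before that of Ube2b.
Ube2h: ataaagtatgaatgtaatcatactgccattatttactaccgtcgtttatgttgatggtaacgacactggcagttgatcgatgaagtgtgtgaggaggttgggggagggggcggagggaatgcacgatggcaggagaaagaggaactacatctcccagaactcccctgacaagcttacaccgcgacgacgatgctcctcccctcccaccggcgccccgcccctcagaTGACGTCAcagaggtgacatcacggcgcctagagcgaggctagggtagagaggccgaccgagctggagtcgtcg
Ube2b: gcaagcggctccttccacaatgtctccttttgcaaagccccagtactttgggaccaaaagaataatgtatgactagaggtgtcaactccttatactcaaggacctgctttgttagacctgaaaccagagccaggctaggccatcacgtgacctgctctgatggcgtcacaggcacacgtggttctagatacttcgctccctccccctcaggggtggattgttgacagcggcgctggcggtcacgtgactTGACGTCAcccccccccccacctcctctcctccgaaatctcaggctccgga
The letters AGATAA, read by GATA factors of red cells among others, were found on either strand at the other start of Ube2h and in no other kept member, against 11.2% of all windows. These are matches of letters in a window, and no binding was measured.

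The UbcH5 and UbcH6 classes hold E2 enzymes that serve many RING ligases. In the UbcH5 class, Ube2d3 was at 8.30, 8.32 and 8.40 in WT mice and at 8.00, 8.21 and 8.03 in Tg-38 mice. The groups did not overlap (-0.26 ± 0.11, adjusted p = 0.27), but its other kept probe was at -0.05 ± 0.18 (adjusted p = 0.91). Its paralog Ube2d2a went the other way, at 10.33, 10.16 and 10.28 against 10.37, 10.47 and 10.37. This was the 1 member whose Tg-38 mice were all above the WT mice (0.15 ± 0.11, adjusted p = 0.52). Paralogs of this class are close in sequence, and whether these probes tell them apart was not tested. In the UbcH6 class, Ube2e1 was at 6.99, 6.78 and 7.16 against 6.77, 6.62 and 6.65, with no overlap (-0.29 ± 0.13, adjusted p = 0.28). The gap between the lowest WT and the highest Tg-38 mouse was small. Ube2e3 was at -0.23 ± 0.12 by its brighter probe and at 0.33 ± 0.19 by its dimmer one (adjusted p = 0.38 and adjusted p = 0.42), and Ube2e2 was at -0.01 ± 0.14.

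The E2 enzymes of K48-linked chains and of degradation at the endoplasmic reticulum (ER) were divided, with 3 of 5 kept genes below 0. Ube2g1, which extends K48-linked chains with cullin ligases, was at 9.66, 9.38 and 9.41 in WT mice and at 9.31, 9.14 and 9.15 in Tg-38 mice. The groups did not overlap (-0.28 ± 0.12, adjusted p = 0.29). A second probe was alike, at 9.54, 9.37 and 9.34 against 9.22, 9.06 and 9.01 (-0.32 ± 0.11, adjusted p = 0.21). The last kept probe gave -0.13 ± 0.16 with overlapping groups. Ube2g1 was the only Ube2 gene with 2 kept probes at an unadjusted p under 0.05. Ube2k, which can build K48-linked chains by itself, was at -0.11 ± 0.10 and -0.20 ± 0.12 by its 2 kept probes (adjusted p = 0.63 and adjusted p = 0.47), the first without overlap of the groups. The ER enzymes differed in sign. Ube2j1 was at 0.30 ± 0.18 (adjusted p = 0.45), Ube2g2 at 0.29 ± 0.18 (adjusted p = 0.46) and Ube2j2 at -0.12 ± 0.16 (adjusted p = 0.75). Ube2g2 was dim, detected in 1 WT and 2 Tg-38 mice. Among 15 kept partners of ER-associated degradation, 6 were below 0, and the median was 0.04.

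Ube2l6, the interferon-induced E2 that passes ISG15 to its targets, had the lowest value of the family but also one of the dimmest signals. It was detected in 3 WT mice and 1 Tg-38 mouse, so it passed the filter through the WT group. It was at 5.14, 5.82 and 5.79 in WT mice and at 5.24, 5.01 and 4.95 in Tg-38 mice. WT 1 lay below Tg-38 1, so the groups overlapped (-0.52 ± 0.19, adjusted p = 0.21). Without background correction the log2 fold change was -0.16. A second probe was detected in 1 mouse of each group and was not kept. Of 11 kept genes of the ISG15 system and the interferon response, 9 were above 0, Psmb8 and Trim25 were at -0.05 and -0.10, and the median was 0.29 (0.11 with median scaling). Uba7, the E1 of ISG15, stood at 0.32 ± 0.12 (adjusted p = 0.24), and Isg15 itself at 0.29 ± 0.17 (adjusted p = 0.43). Irf7, Gbp2 and Usp18, which removes ISG15, were at 0.74, 0.47 and 0.44, with adjusted p from 0.091 to 0.17. Ifit3, an interferon-induced RNA-binding protein, rose by 1.23 ± 0.15 (adjusted p = 0.013), from 8.66, 8.57 and 8.17 to 9.83, 9.54 and 9.74. That call was lost without Tg-38 1, without Tg-38 3, without a detection filter and by the methods' t-test, with adjusted p up to 0.16. The difference between Ube2l6 and these genes was not tested.

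For E2 enzymes of several well-known pathways the 95% interval included 0. Ube2n (Ubc13) and its inactive partner Ube2v1 build K63-linked chains, for example downstream of antigen receptors. They were at -0.10 ± 0.11 and -0.25 ± 0.17 (adjusted p = 0.7 and adjusted p = 0.51), with 95% intervals from -0.35 to 0.15 and from -0.65 to 0.14. Among 18 kept partners in this pathway, 9 were below 0. Ube2c and Ube2s start and extend K11-linked chains for the anaphase-promoting complex (APC/C) and follow the cell cycle. They were at -0.05 ± 0.23 and -0.03 ± 0.19, and their intervals of -0.57 to 0.46 and -0.46 to 0.39 were among the widest of the family. Of 15 kept APC/C and mitotic partners 7 were below 0, and so were 7 of 14 proliferation markers. Ube2f, an E2 of NEDD8 that serves Cul5, had 4 kept probes between -0.16 and 0.05, and its brightest was at -0.07 with an interval from -0.31 to 0.17. Of 16 kept genes of the NEDD8 system 7 were below 0.

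The 3 members with the brightest probes included 2 more genes besides Ube2b. Ube2l3 (UbcH7), which serves HECT and RBR ligases such as Parkin, was at 11.74, 11.48 and 11.74 in WT mice and at 11.46, 11.56 and 11.47 in Tg-38 mice. WT 2 lay within the Tg-38 group (-0.16 ± 0.12, adjusted p = 0.53), and the second probe gave -0.23 ± 0.12 (adjusted p = 0.35). The probes of Ube2q1 did not go the same way. Its brightest probe was at 11.02, 10.75 and 10.85 against 10.88, 11.08 and 11.13 (0.15 ± 0.12, adjusted p = 0.57). A dimmer probe was at 8.19, 7.96 and 7.92 against 7.81, 7.48 and 7.61, with no overlap (-0.39 ± 0.13, adjusted p = 0.18), and the last was at 0.00 ± 0.18. Its direction is therefore not settled. Of 10 genes with several kept probes, Ube2b, Ube2e3, Ube2f and Ube2q1 had probes on both sides of 0. The remaining E2 enzymes were Ube2z, which is charged by the E1 Uba6 alone, at -0.20 ± 0.12 (adjusted p = 0.43), and Ube2q2 at -0.07 ± 0.11 (adjusted p = 0.81).

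Ube2cbp, which bears the name of Ube2c because it binds it, is a ligase (Ube3d) and not an E2. It was the 1 member above 0 at an unadjusted p under 0.05. It was at 7.15, 7.18 and 7.49 in WT mice and at 7.43, 7.66 and 7.66 in Tg-38 mice, with WT 3 above Tg-38 1 (0.31 ± 0.13, adjusted p = 0.28). Without it, 21 of the 25 remaining genes were below 0.

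**Figure D4:**
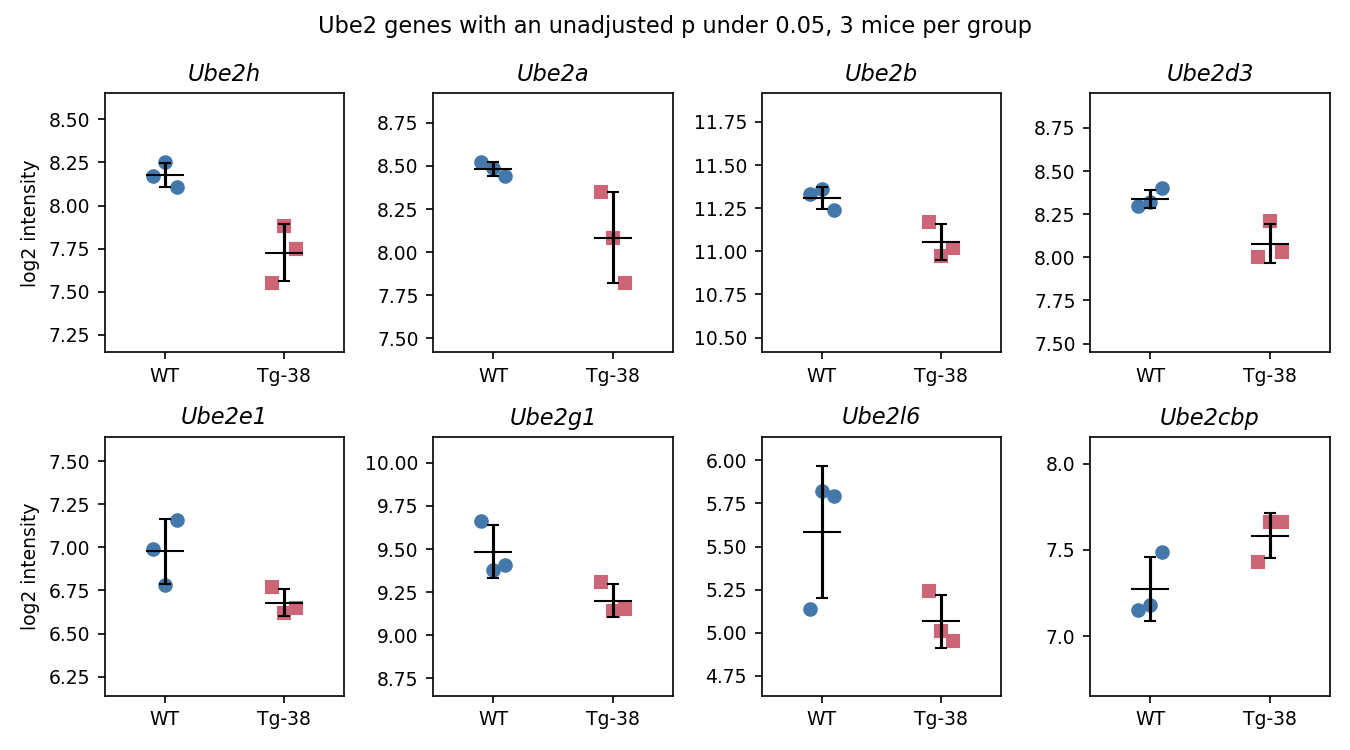
Log2 intensity (vertical axis, the same span in each panel) of the 8 Ube2 genes with an unadjusted p under 0.05 by their brightest kept probe, in 3 WT mice (blue circles) and 3 Tg-38 mice (red squares), with mean and SD. The groups do not overlap for Ube2h, Ube2a, Ube2b, Ube2d3, Ube2e1 and Ube2g1, and overlap for Ube2l6 and Ube2cbp.

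Counted over the 26 genes, all Tg-38 mice lay below all WT mice for 7 members (Ube2a, Ube2b, Ube2d3, Ube2e1, Ube2g1, Ube2h and Ube2k), where 10.5% of all genes did so. All Tg-38 mice lay above all WT mice for Ube2d2a alone, where 14.2% of all genes did so. The groups overlapped for 18.

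The other 8 members gave no test. Ube2d1, Ube2dnl2, Ube2ql1, Ube2u, Ube2v2 (the partner of Ube2n in DNA repair) and Ube2w were not detected on any array. Ube2d-ps was detected in 1 WT mouse, and Ube2r2, a relative of Cdc34 that serves SCF ligases, in 2 Tg-38 mice. Their means in those groups, 5.00 for Ube2d-ps and 5.08 for Ube2r2, were below 5.15. That value is the lowest signal of a detected probe on each array, averaged over the arrays of the other group. No fold is therefore given. Ube2m, the main E2 of NEDD8, is not analysed here.

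Enzymes before and after the E2 step, and proteins with an E2-like fold but no Ube2 symbol, were compared from lists. Upstream, 3 of 7 kept E1 enzymes were below 0 with a median of 0.05. Of 9 kept proteins with an E2-like fold but another symbol, such as Cdc34, 4 were below 0, with a median of 0.03. Downstream, 16 of 20 HECT and RBR ligases were below 0, with a median of -0.10. So were 11 of 17 RING ligases and ligase subunits with a role in thymocytes (median -0.07) and 22 of 26 deubiquitinases (median -0.14). Of the SUMO system, 10 of 17 genes were below 0. Of all genes in these ubiquitin-system lists, Ifit3 alone passed the adjusted threshold. The medians of the E1, E2-fold, APC/C, NEDD8 and ER lists fell on the other side of 0 with median scaling, which moved all genes down, and 26 of 26 deubiquitinases were then below 0. Among ligases, the HECT enzyme Wwp1 stood at -0.47 ± 0.14 (adjusted p = 0.15) and Herc1 at -0.26 ± 0.11 (adjusted p = 0.27). Ddb1, the adaptor of cullin 4, was at -0.34 (adjusted p = 0.18), Rnf2, which modifies histone H2A, at -0.30, and Fbxw7, which selects targets for an SCF ligase, at -0.28. Among deubiquitinases, Usp25 was at -0.60 ± 0.21, Usp10 at -0.41 and Usp33 at -0.32, with adjusted p from 0.2 to 0.23. In the ER list Edem1 was at -0.43, Marchf6 at -0.38 and Aup1, which recruits Ube2g2 to membranes, at 0.25. Rnf31, the catalytic unit of the linear ubiquitin ligase, was at 0.34 ± 0.11 (adjusted p = 0.17), the SUMO ligase Pias4 at -0.26, the SUMO enhancer Rwdd3 at 0.29 and the proliferation marker Tyms at 0.27.

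**Figure D5:**
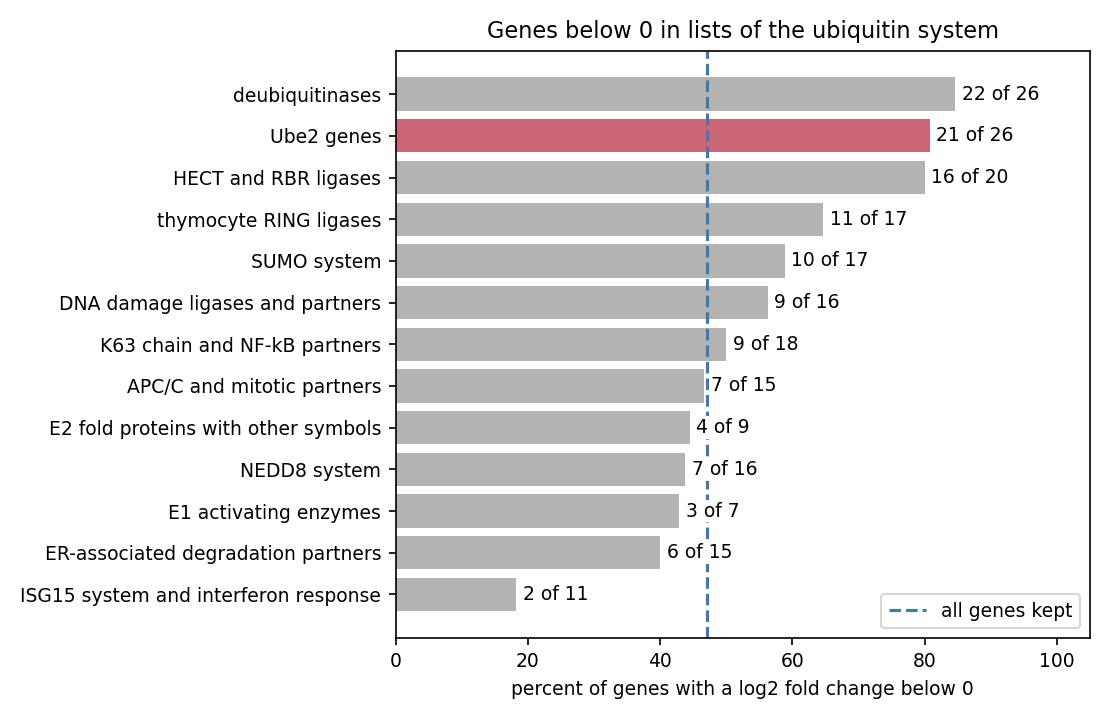
Percent of kept genes with a log2 fold change below 0, Tg-38 minus WT, in lists of the ubiquitin system (bars, with counts), for the Ube2 genes (red) and over all kept genes (dashed line, 47.1%). Ube2 genes, deubiquitinases and HECT and RBR ligases stand at 80% or above, and the ISG15 and interferon list is lowest with 2 of 11.

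Cell type markers differed between the groups too. Markers of CD4+CD8+ double positive thymocytes, the bulk of the thymus, had a summed linear intensity of 74745 to 79529 in WT mice and 67997 to 71894 in Tg-38 mice, and 9 of 11 kept markers were below 0 (Cd8a was not kept). Their median was -0.12. Red cell markers summed to 10995 to 25586 against 3875 to 9495 (3 of 3 kept below 0, Slc4a1 and Gata1 not kept). Markers of macrophages and dendritic cells summed to 11716 to 13102 against 15092 to 16972 (11 of 14 above 0), those of single positive thymocytes to 5375 to 6214 against 6887 to 8031 (5 of 7 above 0), those of thymic epithelium to 1525 to 2035 against 2239 to 2594 (7 of 8 above 0, Epcam, Krt5 and Foxn1 not kept), and those of NK and cytotoxic cells to 2038 to 2464 against 3137 to 3831 (5 of 5 above 0, and 2 of 5 below 0 with median scaling). In each of these sums the groups did not overlap, but linear sums mostly follow the brightest markers. The red cell sum was nearly all Hba-a1, with a WT mean log2 intensity of 14.15 against 7.79 for Alas2 and 5.19 for Klf1. Of the double positive markers, Cd8b1 (14.83) and Satb1 (14.57) were the brightest in WT mice. By limma, Il7r, Itgb7, Cd86, Klrd1, Nkg7 and Acta2 passed the adjusted threshold as higher in Tg-38 mice, and Ikzf2, from the single positive list, as lower (-0.62, adjusted p = 0.049). Of the remaining lists, 7 of 8 kept markers of double negative thymocytes were above 0 with a median of 0.13, which was -0.03 with 4 of 8 below 0 under median scaling, and 3 of 5 of fibroblasts and vessels were above 0, while Cd79b, the 1 kept marker of B lymphocytes, was at -0.55. The part of cell composition in the Ube2 values was not tested.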

How the data were processed

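RNA of whole thymus from 3 WT and 3 Tg-38 mice was hybridized by the authors to Illumina MouseWG-6 v2 arrays, 1 per mouse, with mice taken as replicates. The deposited intensity of each probe is the average bead signal from GenomeStudio, with no normalization between arrays, beside its deposited detection p-value. GenomeStudio's version is not given in the sources used here. A further deposited table holds intensity values that the authors had background-subtracted and rescaled by a method not given in the sources used here, and it served as an alternative.

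Signals were processed with neqc of limma 3.58.1 in R 4.3.3, which takes the background from the detection p-values, adds an offset of 16, quantile-normalizes and takes log2. A probe stayed in when 3 or more arrays gave it a detection p below 0.05. The groups were compared with lmFit and eBayes (two-sided) and Benjamini-Hochberg adjustment over 18352 probes, without covariates. SE and 95% intervals come from this fit. Gene symbols were those of the platform annotation, in which 34885 probes have 1 gene, and each gene was represented by its brightest kept probe. Microarray signals do not give counts, so 3 arrays per group limit the precision.

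Array values were printed for Ube2 genes with any kept probe at an unadjusted p under 0.05, for the 3 with the brightest probes, and for genes whose probes then differed in sign. From other lists, up to 3 genes with the smallest unadjusted p under 0.05 were named, and further genes for their role in a pathway described. The lists hold E1 enzymes, E2-fold proteins, ligases, deubiquitinases, partner pathways and cell type markers. Members and lists were chosen with earlier results of these data known. Values for Ube2d2a, Ube2t, Hba-a1, Alas2, Bpgm, Slc25a37, Isg15, Psmb8 and Trim25 and the marker genes past the threshold were added after they were seen. Alternatives were no background correction, median scaling, other detection filters, the deposited rescaled values, an intensity trend, array weights, a replicate block, the methods' t-test, other probe choices and leaving out each array. Sequences are from RefSeq (GRCm38.p6). The script was tested on simulated data.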

Additional observations from a re-analysis of the deposited data

How the results depend on the processing

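In all 17 fits, 0 Ube2 probes passed the adjusted threshold, and none of the 10 Ube2 probes at an unadjusted p under 0.05 changed sign. With 3 arrays per group, the number of arrays limits the precision, and Ube2l6 and Ube2g2 lie near the background on several arrays. With median scaling, 0 Ube2 genes lay above 0 at an unadjusted p under 0.05 and 10 below, and the family median was -0.29. That scaling moved the other genes down too, to a median of -0.13 with 72.3% below 0. Shares of all genes at an unadjusted p are not given for the alternatives, so these counts describe the Ube2 genes only. Without a detection filter the gap between the medians of Ube2 and other genes was -0.09. The methods' t-test gave 3 genes below and 0 above 0 at an unadjusted p under 0.05. With the probe of smallest p for each gene, the family median was -0.21 and the gap -0.22. Leaving out 1 array gave 2 to 5 genes below and 0 to 2 above 0 at an unadjusted p under 0.05, a family median of -0.19 to -0.12 and a gap of -0.21 to -0.13. The cause of these moves was not tested. Apart from the replicate block given below, the other settings gave 6 to 8 genes below 0 at an unadjusted p under 0.05. The share of Ube2 genes below 0 ran from 69.2% to 88.5%, and that of other genes from 46.2% to 72.3%. Ube2h had an unadjusted p under 0.05 in 16 of 16 alternatives, Ube2a in 13, Ube2b and Ube2g1 in 11, Ube2d3 and Ube2cbp in 10, Ube2e1 in 6, and Ube2l6 in 6 of 14. Of 448 counts over the other lists under alternatives, 323 were within 1.5 times the count reported and 125 were not.

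The samples of the groups share replicate numbers, but deviations of same-numbered arrays correlated at 0.03, -0.12 and -0.1, and 0 of 6 arrays correlated best with its own number. With a replicate block, 4 Ube2 genes lay below 0 at an unadjusted p under 0.05 in place of 7, and 27 in place of 202 of all probes passed the adjusted threshold.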
